A study of Chelonia mydas with 15 samples.

Results

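C10H15orf48 and NDUFA4 are genes for small mitochondrial proteins of 1 family, measured here by RNA sequencing in embryos of the green sea turtle, Chelonia mydas. They are 2 of the 23730 named genes in the count table, and both had enough counts to be among the 16639 genes tested. C10H15orf48 was chosen by its fold change between hypoxia and the other groups, so its values are given as a description with no test. NDUFA4 was taken as its paralogue, not for its own values, and was tested in every comparison. The samples are 15 embryo libraries in 3 groups of 5, and replicate numbers only name the libraries of a group in the order listed. The hypoxia embryos came from eggs incubated for 36 h in nitrogen-filled bags at an oxygen tension below 8 mmHg. The normoxia embryos came from eggs incubated for 36 h in sand at about 159 mmHg, and both incubated groups were kept at 26 to 28 °C. The freshly laid embryos were taken out within 1 h of laying.

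NDUFA4 was first assigned to complex I of the respiratory chain and is now known in mammals as a subunit of complex IV, the enzyme that passes electrons to oxygen. The human counterpart of C10H15orf48, C15orf48, encodes a paralogue of NDUFA4 that is induced by inflammatory signals such as NF-kappaB in macrophages and epithelia, and that can take the place of NDUFA4 in complex IV. The third paralogue, NDUFA4L2, is a target of hypoxia-inducible factor 1 in mammalian cells, where it lowers respiration. These roles are known from mammals and were not examined in turtle embryos here.

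Library totals ran from 17590559 to 20797573 counts in hypoxia, from 18257476 to 26805841 in normoxia and from 14496102 to 21771745 in freshly laid embryos. Levels are given in CPM, a gene's counts scaled for the depth and composition of the library, or in FPKM, the CPM per kb of annotated exon. A gene that rose or fell was higher or lower in the group named than in the group it was compared with. A course over time is not implied. In whole embryos a lower level cannot be told apart from fewer cells that express the gene. All 10 early embryo markers (among them POU5F1, SOX2 and TBXT) were detected in each group, with a summed level of 291 to 438 CPM in hypoxia, 229 to 298 CPM in normoxia and 342 to 607 CPM in freshly laid embryos. Single markers under this sum went different ways. In the same order of groups, TBXT averaged 7.90, 60.1 and 36.7 CPM and POU5F1 13.9, 3.63 and 51.0 CPM. SOX2 averaged 4.36, 5.57 and 4.98 CPM and EOMES 136, 28.1 and 86.4 CPM. The labels do not name the female or clutch of an egg, so p-values reflect no more than the spread among these libraries, which may be technical. The column headers carry an index number, which was 12 or more in 1 hypoxia, 3 normoxia and 1 freshly laid library and under 12 in the others. With the libraries under 12 alone, 4 from hypoxia, 2 from normoxia and 4 from freshly laid embryos, several calls were lost, as given beside each.

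The annotated gene structures of the paralogues shared a feature that played no part in choosing them. In the assembly rCheMyd1.pri, C10H15orf48 (gene ID 102936839) lies on the minus strand from 19395577 to 19400188 of the chromosome numbered 10 in the later version of the assembly, and has 5 exons. NDUFA4 (gene ID 102941120) lies on the plus strand from 211098625 to 211106828 of the chromosome numbered 2, and has 4 exons. In the direction of transcription the exons of NDUFA4 are 165, 89, 61 and 231 bases long. Those of NDUFA4L2 are 115, 89, 61 and 238 bases long. Those of C10H15orf48 are 257, 61, 89, 61 and 2024 bases long. An exon of 89 bases followed by one of 61 bases thus occurs in all 3 paralogues. The same pair of lengths occurs in 7 of the 21456 genes with 2 or more exons (0.0326%), the other 4 being PDE8B, GFM2, FRMD5 and FANCA. The pair was taken from the paralogues themselves, so this share is a description and no test. The last exon of C10H15orf48 makes up most of its 2492 exonic bases, against 546 bases for NDUFA4. A count covers the whole gene and does not show which exons the reads came from.

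**Figure D1:**
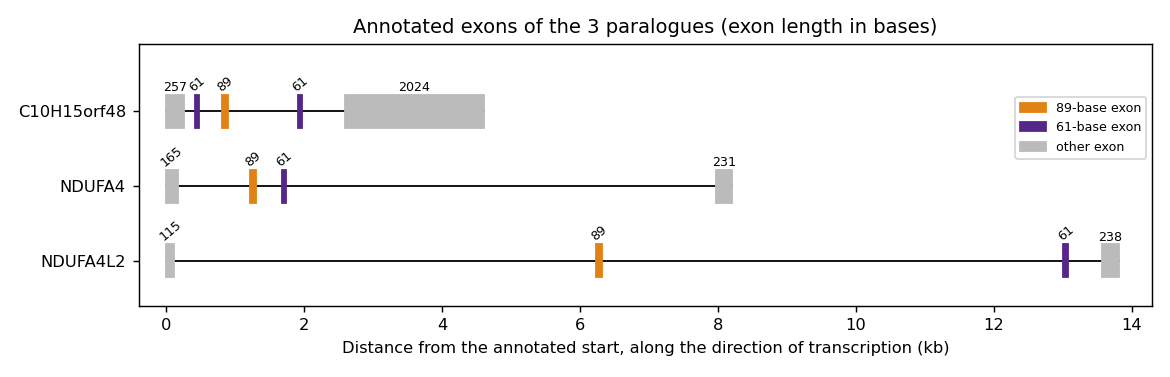
Annotated exons of C10H15orf48, NDUFA4 and NDUFA4L2 in the direction of transcription, with distance from the annotated start in kb on the x axis and the length of each exon in bases above it. The 89-base exon (orange) is followed by a 61-base exon (purple) in all 3 genes, and C10H15orf48 ends in an exon of 2024 bases.

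C10H15orf48 was well detected in every hypoxia library and near 0 in normoxia and freshly laid embryos. The hypoxia libraries held 609, 659, 535, 801 and 501 counts, or 35.2, 36.0, 33.7, 49.6 and 33.2 CPM in replicates 1 to 5. The normoxia libraries held 0, 5, 19, 4 and 6 counts, or 0, 0.193, 0.657, 0.177 and 0.286 CPM. The freshly laid libraries held 0, 3, 14, 16 and 10 counts, or 0, 0.172, 0.844, 0.817 and 0.459 CPM. The hypoxia libraries did not overlap with either other group, and the highest of them was 1.496 times the lowest. A count of 0 allows up to 0.145 CPM in normoxia replicate 1 and 0.188 CPM in freshly laid replicate 1, taking 3 counts on the same scale as the limit, which covers counting error only.

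C10H15orf48 averaged 37.6 ± 6.85 CPM in hypoxia, 0.263 ± 0.244 CPM in normoxia and 0.459 ± 0.377 CPM in freshly laid embryos (SD, n = 5 each). The fitted level in hypoxia was 134-fold that in normoxia (log2 fold change 7.07) and 79.8-fold that in freshly laid embryos (6.32). Without 1 library of the groups compared, the log2 fold change ran from 6.77 to 7.77 against normoxia and from 6.02 to 6.63 against freshly laid embryos. In the libraries with an index under 12 it was 7.63 and 6.04. These values describe a gene chosen for its fold and are no support for the rise. By size of the fold C10H15orf48 stood in place 6 of 16639 tested genes in both comparisons. Among the 12684 tested genes with a gene symbol it came in place 1 against normoxia and in place 5 against freshly laid embryos. Of all tested genes 48.8% were called against normoxia and 40.3% against freshly laid embryos, so a change in hypoxia was common. The hypoxia libraries are shared by both comparisons.

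Among the 10 genes with the largest folds against normoxia and a mean of at least 20 counts in hypoxia, the others with a symbol were ANKRD37 (93.5-fold), a target of hypoxia-inducible factor in mammals, and FBXO40 (81.6-fold). Against freshly laid embryos the genes with a symbol in the same list were ATOH1 (410-fold), HES3 (225-fold), the stress-induced factor ATF3 (167-fold), SLC51B (157-fold) and the melanocortin receptor gene MC5R (61.6-fold). C10H15orf48 and LOC119564331, which has no symbol, were the genes in both lists. The folds of LOC119564331 were larger, at 299.5 against normoxia and 89.9 against freshly laid embryos.

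Between normoxia and freshly laid embryos C10H15orf48 had too few counts for a test of its own. It was among the tested genes only through its counts in hypoxia, and did not pass the count filter in a fit of the 10 normoxia and freshly laid libraries alone. The normoxia libraries ran from 0 to 0.657 CPM, with 34 counts in all, and the freshly laid libraries from 0 to 0.844 CPM, with 43 counts in all. The groups overlapped, and a difference between them was not detectable at this depth.

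**Figure D2:**
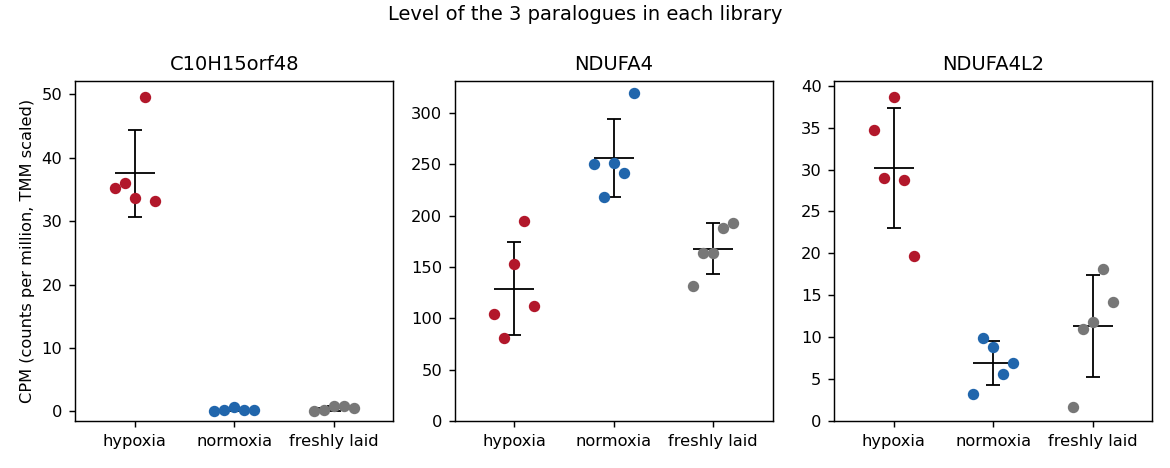
Level in CPM of C10H15orf48, NDUFA4 and NDUFA4L2, with 1 point per library and the mean and SD of the 5 libraries of each group as bars. C10H15orf48 sits between 33.2 and 49.6 CPM in hypoxia and below 1 CPM in normoxia and freshly laid embryos, while NDUFA4 is highest in normoxia and NDUFA4L2 highest in hypoxia.

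NDUFA4 was strongly expressed in all groups and, unlike its paralogue, was lower in hypoxia than in normoxia. Replicates 1 to 5 had 104, 80.9, 153, 195 and 112 CPM in hypoxia. The normoxia libraries had 250.2, 218, 251, 241 and 319 CPM. The freshly laid libraries had 131, 164, 164, 188 and 193 CPM. Every hypoxia and every freshly laid library lay below every normoxia library, and the hypoxia and freshly laid libraries overlapped. The highest hypoxia library was 2.41 times the lowest, against 1.47 times in normoxia and 1.47 times in freshly laid embryos.

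NDUFA4 fell 1.99-fold in hypoxia relative to normoxia, to 129 ± 45.1 CPM, against 256 ± 37.9 CPM in normoxia (SD, n = 5 each). Its log2 fold change was -0.99 ± 0.20 (SE), with an edgeR adjusted p = 0.000555, and 23.2% of all tested genes were called lower. In the 4 hypoxia and 2 normoxia libraries with an index under 12 the estimate was -0.77, which was not called (edgeR adjusted p = 0.057).

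Against the freshly laid embryos at 168 ± 24.6 CPM (SD, n = 5), NDUFA4 in hypoxia was not called. The log2 fold change was -0.38 ± 0.20 (SE, edgeR adjusted p = 0.134). It was called without hypoxia replicate 4 (-0.58, edgeR adjusted p = 0.0163), and scaling by total counts alone gave -0.68 with an adjusted p = 0.0119. In the libraries with an index under 12 it was -0.39 (adjusted p = 0.227).

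NDUFA4 rose 1.52-fold in normoxia relative to freshly laid embryos (log2 fold change 0.61 ± 0.20, SE, edgeR adjusted p = 0.027), where 31.2% of all tested genes were called and 15.2% called higher. That call ended without freshly laid replicate 1 (0.53, adjusted p = 0.0656), freshly laid replicate 2 (0.60, 0.0519) or normoxia replicate 5 (0.52, 0.0773). An index under 12 gave 0.38 (edgeR adjusted p = 0.427).

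NDUFA4L2, the third paralogue, rose in hypoxia in both comparisons. It had 34.7, 29.0, 38.7, 28.8 and 19.7 CPM in hypoxia, 3.23, 9.93, 8.79, 5.58 and 6.96 CPM in normoxia, and 1.63, 10.9, 11.8, 18.2 and 14.2 CPM in freshly laid embryos. All hypoxia libraries lay above all others. The gene rose 4.37-fold relative to normoxia (log2 fold change 2.13 ± 0.44, SE, edgeR adjusted p = 0.000651) and 2.66-fold relative to freshly laid embryos (1.41 ± 0.43, edgeR adjusted p = 0.0139). Normoxia against freshly laid gave -0.72 ± 0.42 (edgeR adjusted p = 0.208) and passed the threshold only when freshly laid replicate 1 was left out (-0.996, adjusted p = 0.0177). That library had the lowest NDUFA4L2 level of all 15 and no count of C10H15orf48.

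Per length, NDUFA4 was the most abundant of the 3 transcripts in every library, hypoxia included. C10H15orf48 averaged 15.1 ± 2.75 FPKM in hypoxia, 0.105 ± 0.0978 FPKM in normoxia and 0.184 ± 0.151 FPKM in freshly laid embryos (SD, n = 5 each). NDUFA4 averaged 236 ± 82.6 FPKM in hypoxia, 469 ± 69.4 FPKM in normoxia and 307 ± 45.0 FPKM in freshly laid embryos. NDUFA4L2 averaged 60.01 ± 14.31 FPKM in hypoxia, 13.7 ± 5.26 FPKM in normoxia and 22.6 ± 12.2 FPKM in freshly laid embryos. In hypoxia the FPKM of NDUFA4 was 10.3 to 20.6 times that of C10H15orf48, and that of NDUFA4L2 was 2.88 to 5.69 times that of C10H15orf48. These ratios rest on the annotated exon lengths, and before division by length the CPM of NDUFA4 was 2.25 to 4.52 times that of C10H15orf48, which was itself higher in CPM than NDUFA4L2 on average (37.6 and 30.2 CPM). Of the 16639 tested genes, 72.8% had a lower mean FPKM than C10H15orf48 in hypoxia, 1.90% in normoxia and 5.08% in freshly laid embryos. For NDUFA4 the shares were 98.3%, 99.1% and 98.9%.

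The paralogues made up different shares of the family's transcripts in each group. Of the summed FPKM of the 3 paralogues, C10H15orf48 made up 3.66 to 6.56% in hypoxia, 0 to 0.0552% in normoxia and 0 to 0.105% in freshly laid embryos. NDUFA4L2 made up 13.2 to 26.2% in hypoxia, 1.38 to 4.72% in normoxia and 1.33 to 9.504% in freshly laid embryos. NDUFA4 made up the rest, 67.3 to 82.2% in hypoxia, 95.3 to 98.6% in normoxia and 90.4 to 98.7% in freshly laid embryos. The summed level was 311 ± 88.3 FPKM in hypoxia, 482 ± 68.6 FPKM in normoxia and 330.2 ± 56.7 FPKM in freshly laid embryos (SD, n = 5 each). These shares rest on the same exon lengths, include the gene chosen for its rise and are given without a test.

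**Figure D3:**
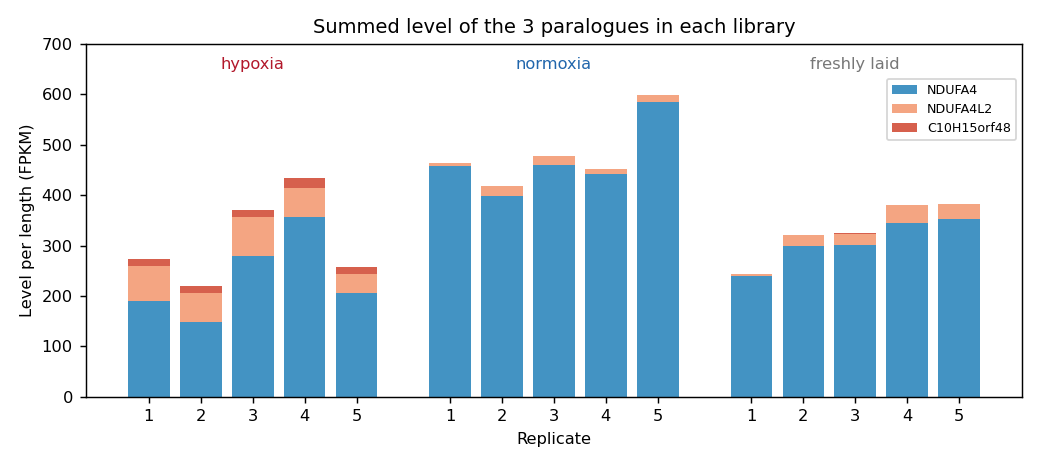
Level per length in FPKM of NDUFA4, NDUFA4L2 and C10H15orf48, stacked for each of the 15 libraries. NDUFA4 is the largest part of every bar, and C10H15orf48 is visible at the top of the 5 hypoxia bars, where it makes up 3.66 to 6.56% of the sum.

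Whether NDUFA4 moved with the other genes that share its name was examined with a list of 13 accessory subunits of complex I, the NDUFA genes and NDUFAB1. Accessory subunits with other names were not in the list. The other subunits of complex IV were not analysed here. In hypoxia against normoxia, 7 of the 13 fell, 1 rose and 5 were not called, where 23.2% of all tested genes were called lower and 25.7% higher. Their median log2 fold change was -0.56, beside 0.06 over all tested genes. NDUFA5 had 42.8 to 63.0 CPM in hypoxia and 85.1 to 131 CPM in normoxia (log2 fold change -1.06 ± 0.17, SE, edgeR adjusted p = 8.02e-05). Freshly laid embryos had 28.5 to 54.5 CPM of NDUFA5, and hypoxia was not called against them (0.20, edgeR adjusted p = 0.368). NDUFAB1, the mitochondrial acyl carrier protein, fell relative to normoxia by as much as NDUFA5 (-1.06 ± 0.18, edgeR adjusted p = 0.000138). The other called falls were in NDUFA8 (-0.88), NDUFA1 (-0.85), NDUFA9 (-0.70), NDUFA6 (-0.67) and NDUFA13 (-0.56). The one rise was in NDUFA2 (0.48, edgeR adjusted p = 0.0342). NDUFA2 was not called when libraries were scaled by total counts alone (0.15, edgeR adjusted p = 0.459). Its call also ended without any 1 of hypoxia replicates 1, 2 and 5 and normoxia replicates 1, 2 and 3 (adjusted p up to 0.0948). That of NDUFA13 ended without any 1 of hypoxia replicates 1 to 4 and normoxia replicates 2, 4 and 5 (adjusted p up to 0.119). Both were also lost with an index under 12 (adjusted p = 0.401 for NDUFA2 and 0.14 for NDUFA13). The fall of NDUFA4, at -0.99, lay within the range of these genes.

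In hypoxia against freshly laid embryos 3 of the 13 rose, 1 fell and 9 were not called, with a median log2 fold change of 0.20 beside 0.03 over all tested genes. The rises were in NDUFA2 (0.81), NDUFA7 (0.67) and NDUFA10 (0.57), and the fall was in NDUFAB1 (-0.63). Those of NDUFA7 and NDUFA10 were not called when libraries were scaled by total counts alone (edgeR adjusted p = 0.0563 and 0.0689). Of all tested genes 20.9% were called higher and 19.4% lower.

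In normoxia against freshly laid embryos 9 of the 13 rose, 4 were not called and all 13 had a log2 fold change above 0, with a median of 0.72 beside -0.00 over all tested genes, of which 15.2% were called higher and 16.1% lower. The largest rises were in NDUFA5 (1.26), NDUFA8 (1.05), NDUFA7 (0.88) and NDUFA1 (0.83). NDUFA4, at 0.61, lay within the range of the 9, which ended with NDUFA10 at 0.36, a call lost without any 1 of 8 libraries (adjusted p up to 0.126). With only the libraries of an index under 12, of which 2 were from normoxia, 3 of the 13 were called higher. The calls lost there were those of NDUFA1, NDUFA6, NDUFA9, NDUFA10, NDUFA11 and NDUFA13 (adjusted p from 0.0585 to 0.306).

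**Figure D4:**
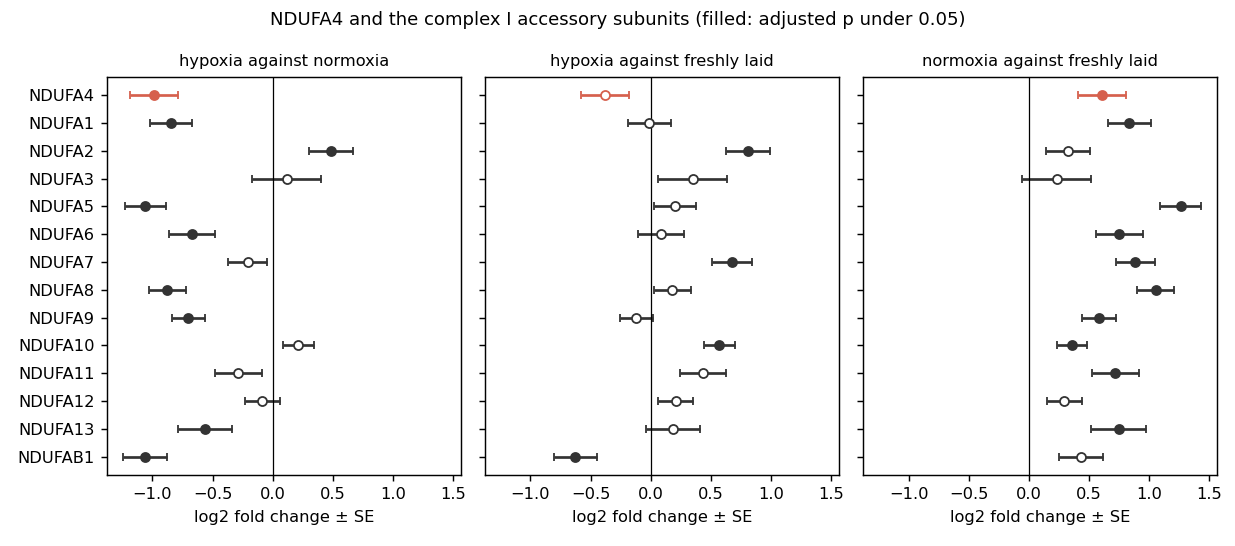
Log2 fold change ± SE of NDUFA4 (red) and 13 complex I accessory subunits in the 3 comparisons, with filled points for genes with an edgeR adjusted p under 0.05. NDUFA4 lies to the left with most subunits in hypoxia against normoxia, and to the left of all but NDUFAB1 in hypoxia against freshly laid.

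The level of NDUFA4 relative to these subunits was compared directly, as its log2 FPKM minus the mean log2 FPKM of the 13 in the same library. The value was 0.74, 0.71, 1.501, 1.94 and 0.92 in hypoxia replicates 1 to 5. It was 1.999, 1.53, 1.80, 1.76 and 1.80 in normoxia and 1.73, 1.68, 1.86, 2.20 and 1.72 in freshly laid embryos. Hypoxia replicates 1, 2 and 5 lay well below every normoxia and freshly laid library, replicate 3 lay narrowly below them, and replicate 4 lay among them. The mean was 1.16 ± 0.54 in hypoxia, 1.78 ± 0.17 in normoxia and 1.84 ± 0.21 in freshly laid embryos (SD, n = 5 each).

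The difference was -0.62 for hypoxia against normoxia (two-sided exact permutation test, p = 0.0635, adjusted over the 3 comparisons p = 0.0952) and -0.68 for hypoxia against freshly laid (exact p = 0.0556, adjusted p = 0.0952). It was -0.06 for normoxia against freshly laid (exact p = 0.643). No difference passed 0.05, and the smallest p that 5 against 5 libraries allow is 0.00794. With the median of the 13 in place of the mean, the first 2 differences were -0.72 and -0.80, both with an exact permutation adjusted p = 0.0238. With any 1 library other than hypoxia replicate 4 left out, neither difference passed 0.05 (exact permutation adjusted p up to 0.167 and 0.155). Hypoxia replicate 4 was the hypoxia library that lay among the other groups. Without it the differences were -0.81 and -0.87, both with an exact permutation adjusted p = 0.0119. In the libraries with an index under 12 they were smaller, -0.38 and -0.60 (exact permutation adjusted p = 0.467 and 0.429). With 4 hypoxia, 2 normoxia and 4 freshly laid libraries neither adjusted p could have passed 0.05, so these p-values decide nothing.

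Of 28 genes listed for the assembly and upkeep of complex IV, 5 were analysed here. In hypoxia against normoxia 4 fell and 1 rose, where 23.2% of all tested genes were called lower and 25.7% higher. In hypoxia against freshly laid embryos 0 fell, 1 rose and 4 were not called, where 19.4% were called lower and 20.9% higher. HIGD1A, a small inner membrane protein that binds complex IV and is induced by hypoxia in mammalian cells, had 9.60, 12.1, 19.7, 5.82 and 8.74 CPM in hypoxia and 33.2, 46.0, 52.1, 44.8 and 75.4 CPM in normoxia. The groups did not overlap, and HIGD1A fell 4.49-fold (log2 fold change -2.17 ± 0.31, SE, edgeR adjusted p = 1.97e-05). It rose 3.37-fold in normoxia relative to freshly laid embryos (edgeR adjusted p = 0.000428). HIGD1A in hypoxia was not called against freshly laid embryos (-0.41, edgeR adjusted p = 0.284), except without hypoxia replicate 3 (-0.72, edgeR adjusted p = 0.0475). HIGD2A (-0.73), LRPPRC (-0.45), which stabilises mitochondrial messenger RNA, and CMC1 (-0.48) also fell relative to normoxia, and CMC2 (0.50) rose. The call of CMC1 ended without any 1 of hypoxia replicates 1, 2, 3 and 5 and normoxia replicates 1, 3, 4 and 5 (adjusted p up to 0.147). CMC2 was not called when libraries were scaled by total counts alone (0.20, edgeR adjusted p = 0.415). Its call also ended without any 1 of hypoxia replicates 3 and 4 and normoxia replicates 1 and 4 (adjusted p up to 0.082). With an index under 12, HIGD1A was called and HIGD2A (adjusted p = 0.052), LRPPRC (0.131), CMC1 (0.341) and CMC2 (0.233) were not.

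Among 6 tested genes linked to oxygen sensing and to the paralogue family, EGLN3 and NDUFA4L2 rose in hypoxia relative to normoxia, HIGD1A, HIF1A and LONP1 fell and EPAS1 was not called. Of all tested genes 25.7% were called higher and 23.2% lower. EGLN3, a hydroxylase that is a target of hypoxia-inducible factors, had 614 to 838 CPM in hypoxia and 10.7 to 17.9 CPM in normoxia, and rose 53.1-fold (edgeR adjusted p = 1.28e-11). Freshly laid embryos lay between, at 62.9 to 107 CPM. EGLN3 was 6.24-fold lower in normoxia than in them (edgeR adjusted p = 2.19e-07) and higher in hypoxia (log2 fold change 3.09, edgeR adjusted p = 9.9e-09). Against freshly laid embryos NDUFA4L2 and EPAS1 also rose in hypoxia (1.41 and 1.63), and HIGD1A, HIF1A and LONP1 were not called. The call of EPAS1 is given for the main fit only. HIF1A, the oxygen-regulated factor, had a log2 fold change of -0.65 and the protease LONP1 of -0.33. Both calls ended when the index number was a covariate (edgeR adjusted p = 0.0503 for HIF1A and 0.0509 for LONP1). That of HIF1A also ended without hypoxia replicate 2 or normoxia replicate 1 (adjusted p up to 0.0547), and that of LONP1 without any 1 of hypoxia replicates 3 and 4 and normoxia replicates 1 and 4 (adjusted p up to 0.0786). With an index under 12 neither was called (adjusted p = 0.282 for HIF1A and 0.149 for LONP1).

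Genes of the NF-kappaB response, which induces the human counterpart of C10H15orf48, went both ways in hypoxia. Of 20 tested members, 6 rose, 5 fell and 9 were not called in hypoxia against normoxia, where 25.7% of all tested genes were called higher and 23.2% lower. Their median log2 fold change was 0.15, beside 0.06 over all tested genes. In hypoxia against freshly laid embryos 6 rose, 5 fell and 9 were not called, where 20.9% of all tested genes were called higher and 19.4% lower. CD83 rose 12.4-fold relative to normoxia (log2 fold change 3.63 ± 0.36, SE, edgeR adjusted p = 4.75e-07), with 8.62 to 29.8 CPM in hypoxia and 1.14 to 1.64 CPM in normoxia. NFKBIZ fell 4.197-fold, the prostaglandin synthase PTGS2 fell 2.96-fold and the NF-kappaB subunit RELB fell 2.38-fold. The subunits NFKB1, NFKB2 and RELA rose (log2 fold changes 0.44, 0.90 and 0.69), and REL was not called (0.81). The other rises were in TNFAIP3 (1.34) and CD40 (1.81), and the other falls in NFKBIA (-1.08) and TRAF1 (-0.73). Apart from CD83, NFKBIZ, PTGS2 and RELB, these calls are given for the main fit only. Against freshly laid embryos the 6 rises included CD83 (log2 fold change 3.08) and TNFAIP3 (2.43), and the 5 falls PTGS2 (-2.50) and TNFAIP2 (-1.65). Those of PTGS2 and TNFAIP2 are given for the main fit only. NFKBIZ in hypoxia was not called there (0.20). In hypoxia against normoxia, PTGS2 was not called with an index under 12 (edgeR adjusted p = 0.056).

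In mammals C15orf48 is expressed in leukocytes and in epithelia, so markers of both were set beside C10H15orf48. The 10 leukocyte markers found, PTPRC and SPI1 among them, summed to 28.1, 19.6, 99.4, 26.2 and 14.97 CPM in hypoxia replicates 1 to 5, to 18.5 to 72.3 CPM in normoxia and to 11.7 to 33.0 CPM in freshly laid embryos. The hypoxia and normoxia ranges overlapped, and hypoxia replicate 3 had the highest sum. The part of these cells in the level of C10H15orf48 was not tested. Of the 9 tested, IKZF1 fell and CSF1R rose in hypoxia against normoxia, where 48.8% of all tested genes were called. The call of CSF1R ended without hypoxia replicate 3 (log2 fold change 0.16, edgeR adjusted p = 0.846) or any 1 normoxia library, and with an index under 12 (adjusted p = 0.219). PTPRC, the pan-leukocyte marker, ran from 0 to 5.11 CPM in hypoxia, from 1.16 to 3.43 CPM in normoxia and from 0 to 0.596 CPM in freshly laid embryos. In hypoxia against freshly laid embryos PTPRC and LAPTM5 rose (log2 fold changes 3.27 and 2.75) and 7 markers were not called. Of all tested genes 20.9% were called higher there. Both calls are given for the main fit only.

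The 8 epithelial markers found summed to 3540.4 to 5635 CPM in hypoxia, 1381 to 1786 CPM in normoxia and 1801 to 3458 CPM in freshly laid embryos. No marker was at 0 throughout a group. The largest parts of the sum in hypoxia were KRT18, KRT8 and EPCAM, at means of 2146, 1471 and 941 CPM. In normoxia these averaged 386, 236 and 796 CPM, and single markers went different ways. The keratins KRT8 and KRT18 rose 6.23-fold and 5.56-fold relative to normoxia (edgeR adjusted p = 1.66e-07 and 1.15e-06). Of the 8, 4 rose, among them also GRHL2 (log2 fold change 0.79) and ESRP1 (1.49), and 2 fell, TP63 (-2.61) and GRHL3 (-0.89). The other 2, EPCAM (0.24, edgeR adjusted p = 0.259) and OVOL1 (0.70), were not called. Of all tested genes 25.7% were called higher and 23.2% lower. The calls of ESRP1 and GRHL3 are given for the main fit only. GRHL2 was not called when libraries were scaled by total counts alone (adjusted p = 0.0956) or with an index under 12 (0.0969). In hypoxia against freshly laid embryos 5 of the 8 rose, KRT8, KRT18, ESRP1, OVOL1 and TP63 (log2 fold change 2.07). EPCAM fell (-0.55) and 2 were not called, where 20.9% of all tested genes were called higher and 19.4% lower. Apart from KRT8 and KRT18, these calls are given for the main fit only. The part of the epithelial markers in the level of C10H15orf48 was not tested. The 11 yolk tissue markers found summed to 89.6 to 670.02 CPM in hypoxia, 80.7 to 766 CPM in normoxia and 31.5 to 63.7 CPM in freshly laid embryos, where 1 marker was at 0 throughout. Of the 9 yolk tissue markers tested, 4 were lower and 5 not called in hypoxia against normoxia, where 23.2% of all tested genes were called lower. Their median log2 fold change was -2.16. Against freshly laid embryos 4 were higher and 5 not called, with a median of 2.43, where 20.9% of all tested genes were called higher. FABP2 is 1 of the 4 in both comparisons, with 252 counts in normoxia, 9 in hypoxia and 0 in freshly laid embryos. It was tested only through its counts in normoxia, so its calls carry no weight. Their part in the level of C10H15orf48 was not tested either.

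The 5 tested neighbours of C10H15orf48 went different ways in hypoxia. A call was common, at 48.8% of all tested genes against normoxia and 40.3% against freshly laid embryos. Because C10H15orf48 was chosen for its large fold, smaller folds in its neighbours are no finding about the locus. The nearest, SPATA5L1, lies 2.9 kb upstream on the same strand. It had 5.32, 5.14, 5.86, 6.51 and 3.97 CPM in hypoxia, 20.9, 19.5, 14.8, 14.31 and 13.2 CPM in normoxia, and 10.4 to 17.7 CPM in freshly laid embryos. It fell 3.08-fold in hypoxia relative to normoxia (log2 fold change -1.62 ± 0.22, SE, edgeR adjusted p = 1.36e-05) and 2.56-fold relative to freshly laid embryos (edgeR adjusted p = 0.000129). SQOR, which oxidises sulfide in mitochondria and lies 96.8 kb downstream, rose 1.93-fold and 1.90-fold (edgeR adjusted p = 0.00115 and 0.00195). BLOC1S6, 78.7 kb downstream, rose 1.45-fold and 1.51-fold (edgeR adjusted p = 0.006 and 0.0036), but was not called when libraries were scaled by total counts alone (0.224 and 0.113), nor against normoxia with an index under 12 (0.0645).

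ATP8B4, 82.7 kb upstream, rose 4.48-fold relative to normoxia (edgeR adjusted p = 0.0199), with 1.67 to 8.63 CPM in hypoxia and 0.572 to 1.45 CPM in normoxia. Its call ended without hypoxia replicate 2 (adjusted p = 0.0714), with the index as a covariate (0.139) and with an index under 12 (0.0643). Against freshly laid embryos ATP8B4 rose 4.53-fold (edgeR adjusted p = 0.0242), with overlapping groups. That call ended without any 1 of hypoxia replicates 2 and 5 and freshly laid replicates 2 and 5 (adjusted p up to 0.081). The zinc transporter gene SLC30A4, 31.6 kb downstream, had 5.68 to 11.3 CPM in hypoxia and 5.73 to 10.1 CPM in normoxia, with overlapping groups and no call (edgeR adjusted p = 0.847). It rose 2.50-fold in hypoxia relative to freshly laid embryos (log2 fold change 1.32, edgeR adjusted p = 0.00118). Of the 6 genes nearest to NDUFA4, 4 were tested in hypoxia against normoxia, where 48.8% of all tested genes were called. PHF14, 33.7 kb away on the other strand, fell 1.70-fold (edgeR adjusted p = 2.92e-05), and LOC119565403, 1064.1 kb away, rose 3.39-fold (edgeR adjusted p = 0.000537). LOC119565404, the nearest at 6.7 kb, and THSD7A, at 476.7 kb, were not called (log2 fold changes 0.89 and 1.35).

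**Figure D5:**
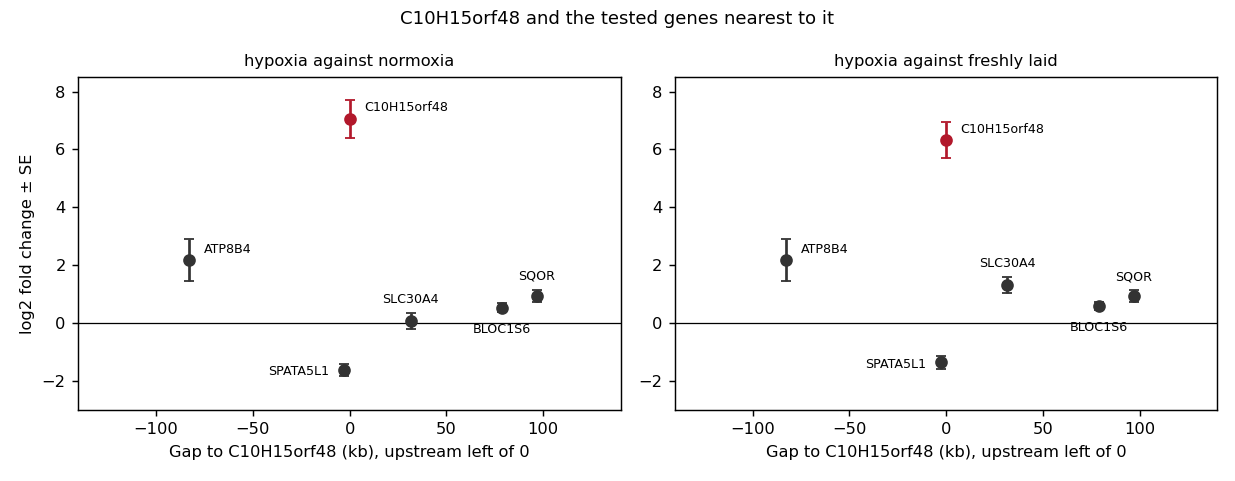
Log2 fold change ± SE of C10H15orf48 (red) and of its nearest tested genes, placed by the gap to C10H15orf48 in kb, with genes upstream of it on the left. SPATA5L1, 2.9 kb upstream, lies below 0 in both comparisons, and the points of the other neighbours lie above 0. C10H15orf48, chosen for its fold, lies at 7.07 and 6.32, and its SE bars are no test of it.

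The genes whose log2 CPM was most like that of C10H15orf48 over all 15 libraries were found by Pearson's r among the tested genes with a symbol. They were CISH (r = 0.98), an inhibitor of cytokine signalling, JUNB (0.98), a subunit of the transcription factor AP-1, and FOXA3 (0.97), a forkhead factor. SNX32, EEF1G, GSTP1, ERFL, SMARCD2, CSNK2A2 and KLF7 followed, each with r of 0.97. CISH had mean levels of 83.1 CPM in hypoxia, 6.66 CPM in normoxia and 10.2 CPM in freshly laid embryos. JUNB had 74.4, 9.59 and 11.9 CPM in the same order, and GSTP1, a glutathione transferase, had 1079, 350 and 376 CPM. The lowest r were those of the helicase BLM (-0.98), the helicase ERCC6L (-0.98), the splicing factor SRSF1 (-0.98), PRMT9 (-0.97) and NCBP2 (-0.97). BLM had 11.96 CPM in hypoxia, 69.6 CPM in normoxia and 62.6 CPM in freshly laid embryos. All these values follow the split of the 5 hypoxia libraries from the other 10, and libraries share their scaling, so r is given as a description.

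NDUFA4 followed another pattern, with normoxia highest. Its most like genes were GTSE1 (r = 0.93), the nucleosome-binding protein HMGN1 (0.93), the monoamine oxidase MAOA (0.92), IFT88 (0.92) and SOCS1 (0.91). SP5, NRAS, LIG1, RANGAP1 and LPCAT3 followed, with r from 0.90 to 0.91. HMGN1 had 138 CPM in hypoxia, 394 CPM in normoxia and 224 CPM in freshly laid embryos, and the DNA ligase LIG1 had 20.2, 80.7 and 43.9 CPM in the same order. The lowest r were those of HERC1 (-0.94), GOLGA4 (-0.93), AAK1 (-0.92), RAB39B (-0.92) and MAGI3 (-0.92). Between the members themselves r was -0.62 over the 15 libraries. Between C10H15orf48 and NDUFA4L2 it was 0.87.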

How the data were processed

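The table the authors deposited holds unnormalized counts of reads per gene. It was written by featureCounts 1.6.2 on the exons of rCheMyd1.pri, with strand setting 2, mapping quality 10 or higher and no option to skip duplicates, per the file headers. STAR and limma are named beside it, per the submitters' processing notes. The table has 18 columns of counts, and 3 of them belong to no sample listed here. One entry without a gene name (0.0553 to 0.334% of counts) stayed out of totals and tests.

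All 15 libraries were fitted together in edgeR 4.0.16 (R 4.3.3) after filterByExpr and TMM scaling, by the quasi-likelihood test, from whose F statistic each SE comes. The TMM factors ran from 0.785 to 0.904 in hypoxia and from 1 to 1.14 in the other libraries. Genes are called at a Benjamini-Hochberg adjusted p under 0.05 over all 16639 tested genes. FPKM is the scaled CPM per kb of deposited exon length, with 0.1 added before log2, and log2 CPM for r used a prior count of 2. DESeq2 1.42.0, limma 3.58.1 (voom), other scalings, no filter and leaving out each library were alternatives. The fit was tested on simulated counts with 200 changed genes. It recovered 22 to 46% of log2 changes of size 1 and 64 to 90% of those of size 2. Of its calls 3.36 to 5.71% were false. In the data far more genes changed, with 31.2 to 48.8% of the 16639 tested genes called. The rates of the simulation may therefore differ from those of the tests reported here. A gene that was not called may still differ.

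The members and lists were chosen with earlier results of these data known. The rule names both members, up to 4 genes per list by smallest adjusted p in hypoxia against normoxia, the 10 most and 5 least like genes, the 3 nearest genes on either side and the 10 largest folds. Other named genes, and complex I accessory subunits in place of complex IV subunits (not analysed here), were chosen after values were seen. Gene IDs and chromosome numbers are RefSeq's for rCheMyd1.pri.v2.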

Additional observations from a re-analysis of the deposited data

Results flagged for a closer look

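In 51 groups of 5 values examined for 1 library apart from the rest, 3 stood out, where chance gives about 1 in 20. C10H15orf48 in hypoxia replicate 4, at 49.6 CPM, lay apart from the other 4 hypoxia libraries, whose highest had 36.0 CPM. NDUFA3 in normoxia replicate 5, at 160 CPM, lay above the others. NDUFA12 in hypoxia replicate 2, at 42.9 CPM, lay below the others.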

How the results depend on the processing

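C10H15orf48 in hypoxia kept its direction under all settings run, with log2 fold changes of 6.76 to 7.77 against normoxia and 6.02 to 6.92 against freshly laid embryos. Each moved by less than 1.006, the SD of log2 CPM pooled over the 3 groups. That is a wide limit, because it includes the normoxia and freshly laid libraries, where the gene had few counts. A gene chosen for a very large fold would keep its direction under such settings, so this is no support for the rise. NDUFA4 in hypoxia against normoxia was called under all but the libraries with an index under 12 (-0.77), a setting chosen after seeing the data, and ran from -1.19 to -0.86 without 1 library. Against freshly laid embryos it was called with total counts only (-0.68) and ran from -0.58 to -0.25 without 1 library. Normoxia against freshly laid ran from 0.52 to 0.66 without 1 library and was 0.38 with an index under 12. The cause was not tested.

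Of the complex I accessory subunits, the 1 higher in hypoxia than normoxia became 0 with total counts only, with the index as a covariate and with an index under 12, and 0 to 1 without 1 library. Against freshly laid embryos, total counts only gave 1 higher and 2 lower in hypoxia, and an index under 12 gave 3 higher in normoxia. NDUFA4 relative to these subunits was -0.72 and -0.80 in hypoxia with their median, -0.38 and -0.60 with an index under 12, and without 1 library ran from -0.81 to -0.50 against normoxia and from -0.87 to -0.56 against freshly laid embryos. Normoxia against freshly laid ran from -0.12 to 0.03, reversing to 0.0296 without freshly laid replicate 4 and 0.0009 without normoxia replicate 2.

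No paired analysis was possible because the labels give no replicate numbers, and those used here only name libraries in the order listed. The planned comparison with complex IV was not run. With an index under 12, 4789 genes were called between hypoxia and normoxia, against 8123, and 1413 between normoxia and freshly laid embryos, against 5193; these libraries number 4, 2 and 4. Low counts limit C10H15orf48 outside hypoxia.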
